A study of Arabidopsis thaliana with 12 samples.

Results

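The comparison described here sets microRNAs (miRNAs) in shoots of a hasty knockout of Arabidopsis thaliana against those of Col-0 wild type (WT) after growth in low nitrogen (low N). It used the 3 hasty and the 3 WT libraries labelled low N, 6 of 12 libraries in the table, and all 390 names listed in it. Shoots came from seedlings of 10 days that had spent 5 days in standard nutrients and then 5 days in the treatment, and each library was labelled as a biological replicate. The other 6 libraries, 3 of each genotype labelled control, entered the fit for the estimate of spread and for the test of whether the genotype difference depended on nitrogen. The low N libraries are called WT 1 to WT 3 and hasty 1 to hasty 3 by their replicate number. The labels do not describe the control medium apart from the low N treatment, name no hasty allele and do not say how many plants made up a library. HASTY messenger RNA is not part of these libraries, so the genotype was taken from the labels.

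HASTY is the plant relative of exportin-5, the nuclear export receptor that carries miRNA precursors out of the nucleus in animals. In plants, DICER-LIKE1 cuts a hairpin precursor in the nucleus into a duplex whose 2 strands come from its 5p and 3p arms, and usually one strand is loaded into ARGONAUTE1 while the other is degraded. Plants without HASTY are known to hold less of many but not all miRNAs, and nitrogen supply is known to alter several miRNA families that act on nutrient transport and root growth.

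The 390 names, of which 216 are known miRNAs (written without the prefix ath-) and 174 are predicted ones numbered as NovelmiRNA, stand for 315 distinct items once names of one mature sequence count once. Of these, 165 were known sequences and 150 were predicted names or sets of them, for which no sequence was given. In the low N libraries a name was listed at 0 in 6 cases where a second name of the identical sequence had at least 50 counts, so each sequence took the highest count under any of its names. Counts summed that way to 899554 to 1067954 in WT low N and to 480652 to 603878 in hasty low N. The listed totals were thus lower in hasty, but they do not give sequencing depth. All levels below are counts per 1000000 (CPM) of a library total adjusted by its trimmed-mean factor. All changes are therefore relative to the other listed miRNAs. Levels do not sum to 1000000: the mean sum was 1110360 CPM in WT low N and 992441 CPM in hasty low N.

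The mature sequences on which the main results turn are printed 5′ to 3′ from RefSeq (TAIR10.1), with the seed, bases 2 to 8, in capitals. The first lines are miRNAs that act on small RNA factors or on phosphate supply, and they were called between the genotypes.
miR827: uUAGAUGAccaucaacaaacu
miR403-3p: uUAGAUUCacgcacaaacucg
miR168a-5p and miR168b-5p: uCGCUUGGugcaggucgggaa
miR162a-3p and miR162b-3p: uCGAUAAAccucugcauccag
The next lines are sister sequences that share a seed and differ at the last base, shown because their levels changed by different amounts in 2 families and not detectably so in the third.
miR159a: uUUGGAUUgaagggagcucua
miR159b-3p: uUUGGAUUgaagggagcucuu
miR398a-3p: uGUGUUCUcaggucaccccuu
miR398b-3p and miR398c-3p: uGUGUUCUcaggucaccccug
miR396a-5p: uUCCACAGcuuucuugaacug
miR396b-5p: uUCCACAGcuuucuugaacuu
The last lines are pairs of 5p and 3p strands whose ratio changed; a line with several names is a sequence that several genes share.
miR157a-5p, miR157b-5p and miR157c-5p: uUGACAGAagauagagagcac
miR157a-3p and miR157b-3p: gCUCUCUAgccuucugucauc
miR167a-5p and miR167b: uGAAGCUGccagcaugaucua
miR167a-3p: gAUCAUGUucgcaguuucacc
miR393a-5p and miR393b-5p: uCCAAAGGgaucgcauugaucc
miR393b-3p: aUCAUGCGaucucuuuggauu

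Low N shoots of hasty held less miR827, miR403-3p, miR168a-5p, miR164a and miR159b-3p and more miR393b-3p, miR157a-5p and miR396b-3p than WT shoots. Of 206 sequences with enough counts to test, 78 (37.9%) differed between the genotypes at an adjusted p under 0.05 (edgeR quasi-likelihood test, two-sided, Benjamini-Hochberg over the 206). In hasty, 32 of them (15.5%) were higher and 46 (22.3%) were lower, and 96 sequences had an unadjusted p under 0.05. Where both groups were above 0, 22 of 36 lower sequences and 6 of 26 higher sequences had changed more than 2-fold. The median log2 change over all 206 was 0.10. With library totals in place of trimmed-mean factors, the median was 0.28 and the split turned to 44 higher and 38 lower, so the balance of directions depends on the scaling. Each library was also left out in turn, and 53 of the 78 calls, 20 higher and 33 lower, were kept in all 12 of these fits. The values of the 3 libraries of each group did not overlap for 111 of the 206 (53.9%), and 5 called sequences did overlap.

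**Figure D1:**
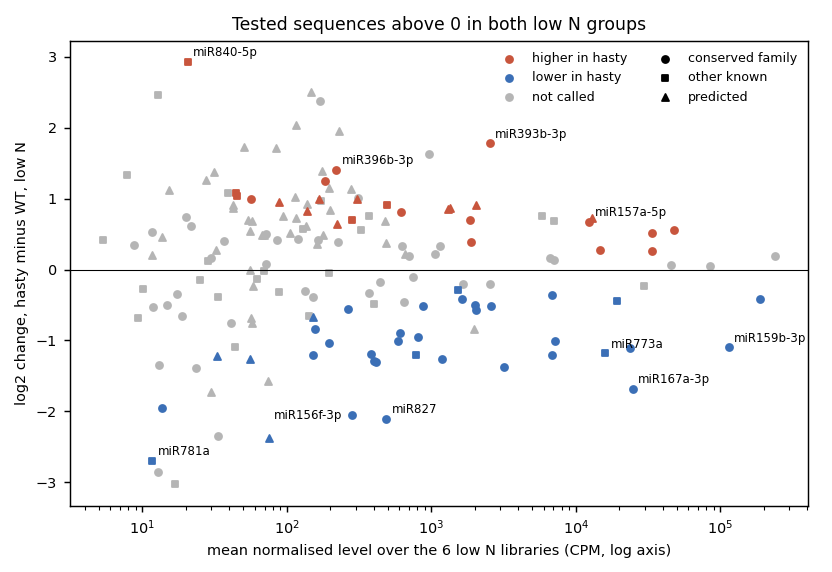
Each point is a tested sequence above 0 in both low N groups; the x axis gives its mean level over the 6 low N libraries in CPM on a log axis, and the y axis its log2 change, hasty minus WT. Called sequences are red (26 higher) or blue (36 lower) and grey ones were not called; point shape gives the class, and the changes beyond -2 include miR827, miR156f-3p and miR781a.

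Conserved families carried 28 of 46 lower calls with 83 of 206 tested sequences (48.2% called, against 37.9% of all tested). Among 83 tested sequences of conserved families, 12 were higher and 28 lower with a median log2 change of -0.30, while 42 other known miRNAs gave 9 higher and 7 lower (median 0.05) and 81 predicted items gave 11 higher and 11 lower (median 0.49). Conserved families held 89.5% ± 0.58 (SD, n = 3) of the counts in WT and 88.6% ± 1.02 in hasty, a difference within the spread (exact two-sided permutation test, p = 0.4). Predicted items held 2.27% ± 0.40 in WT and 3.75% ± 0.70 in hasty. Their share did not overlap between the groups, at an exact permutation p of 0.1, the smallest that 3 against 3 libraries allow (adjusted over 3 classes, p = 0.3). With every name kept as listed in place of 1 count per sequence, the difference in this share was -0.039 points, hasty minus WT, against 1.48 here, so its direction depends on how names are joined.

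Sequences of the families that act on the small RNA machinery itself were mostly lower. Of 7 tested sequences of miR162, miR168 and miR403, 5 were lower and 1 was higher (85.7% called, against 37.9% of all tested; median log2 change -1.10, against 0.10). Both arms are counted here, and the 5 lower calls were 3 of miR168 and 2 of miR403. Among all tested sequences of conserved families 48.2% were called. The 3 families did not move alike. miR168, which acts on ARGONAUTE1, and miR403, which acts on ARGONAUTE2, were lower. For miR162, which acts on DICER-LIKE1, the 3p sequence was slightly higher and the 5p sequence was not called.

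The sequence shared by miR168a-5p (chr4:10578652-10578672, plus strand) and miR168b-5p (chr5:18358873-18358893, minus strand) was at 37637, 30956 and 28947 CPM in the WT libraries and at 14985, 15452 and 14948 CPM in the hasty libraries. The groups did not overlap, and the change was a 2.15-fold fall (log2 -1.10, SE 0.10, adjusted p = 4.5e-05). Both 3p strands, miR168a-3p and miR168b-3p, were lower by log2 changes of -1.19 (adjusted p = 5.9e-05) and -1.03 (adjusted p = 0.0054). For miR403-3p (chr2:19415154-19415174, plus strand) the WT libraries were at 1684, 1579 and 1735 CPM and the hasty libraries at 665, 663 and 761 CPM, a 2.39-fold fall (log2 -1.26, SE 0.093, adjusted p = 9.7e-06) with a wide gap between the groups. The other strand, miR403-5p, was at 9.69 to 32.8 CPM in WT and 1.67 to 9.93 in hasty. These ranges overlap, and its call lay just under the threshold and was lost in 10 of the 12 fits without 1 library (adjusted p = 0.064 to 0.15), all but those without WT 1 or hasty 3. Of 14 other alternatives, such as another scaling, tool or filter, 7 kept the call. The miR162a-3p and miR162b-3p sequence was at 13736, 12729 and 13316 CPM in WT and 16233, 15452 and 16516 CPM in hasty. All 3 hasty libraries were above all 3 WT libraries, by 1.21-fold (log2 0.28, SE 0.058, adjusted p = 0.0045), and the call was lost without WT 2 (log2 0.25, adjusted p = 0.064) and without hasty 1 (log2 0.21, adjusted p = 0.057). It was kept in 10 of 15 other alternatives. The miR162 5p strand was at 60.3, 43.9 and 50.8 CPM in WT and 43.5, 22.8 and 25.8 CPM in hasty. It was lower without overlap but not called (log2 -0.75, adjusted p = 0.13). The 5p to 3p ratio of miR162 was called lower (log2 change -1.05, limma, adjusted p = 0.012).

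Phosphate miRNAs included miR827, whose fall was the largest among sequences with a mean of at least 100 CPM over the 6 low N libraries and above 0 in both groups. miR827 (chr3:22122811-22122831, minus strand) acts on NITROGEN LIMITATION ADAPTATION, a ubiquitin ligase that removes phosphate transporters and takes part in the response to nitrogen limitation. It was at 805, 903 and 663 CPM in WT and at 152, 196 and 203 CPM in hasty. The lowest WT library was more than 3 times the highest hasty library, and the fall was 4.30-fold (log2 -2.10, SE 0.19, adjusted p = 3.8e-05). The miR399 family acts on PHO2, another repressor of phosphate transporters. Its most abundant sequence, miR399b with miR399c-3p, was at 341, 316 and 291 CPM in WT and 226, 200 and 221 CPM in hasty, without overlap (log2 -0.55, SE 0.15, adjusted p = 0.017). This call was lost without WT 1, WT 2 or hasty 2 (log2 -0.55 to -0.50, adjusted p = 0.068 to 0.10). The related miR399f had 63, 77 and 48 counts in WT and was listed at 0 in every hasty library, and miR399c-5p was at 141 ± 28.4 CPM in WT and 188 ± 21.6 in hasty (SD, n = 3), which missed the threshold (adjusted p = 0.15). In all, 3 of 6 tested phosphate sequences were lower, against 22.3% of all tested, and none was higher.

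The copper miRNAs, which act on copper proteins such as laccases and superoxide dismutases, were lower for 2 of 7 tested sequences and higher for none (median log2 change -0.46). Their called share, 28.6%, was not above the 37.9% of all tested. miR397b, a laccase regulator, was at 521, 647 and 529 CPM in WT and 216, 256 and 221 CPM in hasty (log2 -1.29, SE 0.14, adjusted p = 8.9e-05). miR398a-3p, which acts on copper superoxide dismutase transcripts, was at 560, 620 and 590 CPM in WT and at 237, 232 and 244 CPM in hasty. Both sequences had clearly separated groups, and the fall of miR398a-3p was 2.48-fold (log2 -1.31, SE 0.11, adjusted p = 2.1e-05). Its sister sequence miR398b-3p, shared with miR398c-3p, was at 6652, 7387 and 6180 CPM in WT and 6499, 7282 and 8419 CPM in hasty, and these ranges overlapped (log2 0.13, adjusted p = 0.40). miR408-5p and miR408-3p missed the threshold at log2 changes of -0.21 and -0.46, and miR408-3p passed it without WT 3 (log2 -0.64). The 2 sulfate sequences, both of miR395, reached 23.2 CPM at most in a low N library and neither was called.

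**Figure D2:**
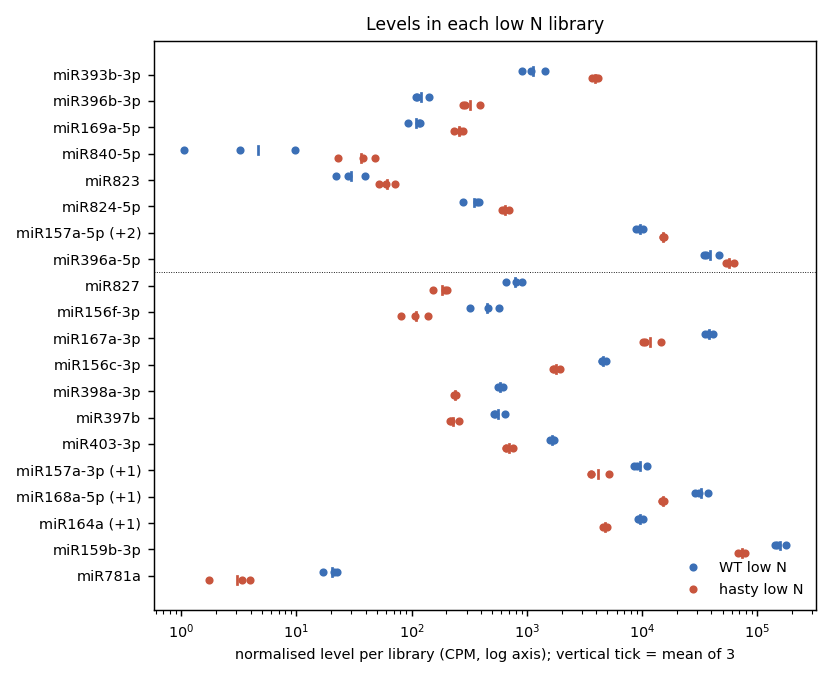
Levels in CPM on a log axis in each of the 3 WT (blue) and 3 hasty (red) low N libraries for 20 sequences, higher ones above the dotted line and lower ones below; the vertical tick is the mean of 3, and (+2) marks further known names of the same sequence. The groups are separate for each sequence drawn, from miR781a near 20.3 CPM in WT to miR159b-3p near 156152 CPM.

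The juvenile phase miRNAs miR156 and miR157, which hold back flowering and adult traits through SPL transcription factors, moved in both directions. Of 12 tested sequences, both arms counted, 7 were lower and 2 higher. Called were 75%, against 37.9% of all tested, 48.2% of conserved families and 69% of items with a mean above 1000 CPM. The median log2 change of the 12 was -0.43. All lower ones but the miR156a-5p sequence were 3p strands. Among 5p strands the miR157a-5p sequence was higher, and miR156g, miR156h and miR157d were not called. The 5p sequence shared by the names miR156a-5p to miR156f-5p was at 2522, 2290 and 2243 CPM in WT and 1747, 1523 and 1726 CPM in hasty. This was a 1.41-fold fall without overlap (log2 -0.50, SE 0.083, adjusted p = 0.0011). The 5p sequence shared by miR157a-5p, miR157b-5p and miR157c-5p went the other way. It was at 10264, 8889 and 9366 CPM in WT and 15174, 15340 and 15113 CPM in hasty, all 3 hasty libraries lying above WT by 1.60-fold (log2 0.68, SE 0.083, adjusted p = 0.00015). Strands of the 3p arm gave the larger falls. miR156f-3p was at 458, 577 and 320 CPM in WT and 139, 80.7 and 107 CPM in hasty (log2 -2.05, SE 0.30, adjusted p = 0.00048), and miR156c-3p was at 4522, 4499 and 4825 CPM in WT and 1692, 1723 and 1931 CPM in hasty (log2 -1.37, SE 0.10, adjusted p = 9.7e-06). Neither sequence had overlapping groups. The more abundant miR156b-3p was at 30370 ± 3707 CPM in WT and 36557 ± 2142 in hasty (SD, n = 3; log2 0.27, adjusted p = 0.031), a call lost in 5 of the fits without 1 library, namely those without the control libraries 1 or 2 of WT or 2 of hasty, WT 3 or hasty 2 (log2 0.17 to 0.31, adjusted p = 0.053 to 0.077). Of 15 other alternatives, such as another scaling, tool or filter, 8 kept this call. None of 3 adult phase sequences of miR172, which represses AP2-like floral repressors, was called.

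Leaf and organ regulators gave 8 lower and 5 higher calls among 19 tested sequences. Called were 68.4%, against 37.9% of all tested, 48.2% of conserved families and 69% of items with a mean above 1000 CPM. The miR159 family, which acts on GAMYB-like transcription factors and is among the most abundant in shoots, was lower in all 3 tested sequences. miR159b-3p (chr1:6220813-6220833, plus strand) was at 146823, 143300 and 178333 CPM in WT and 72952, 78692 and 67420 CPM in hasty, a 2.14-fold fall with separate groups (log2 -1.10, SE 0.12, adjusted p = 9.7e-05). miR159a (chr1:27713234-27713254, minus strand) was at 208662, 198673 and 242232 CPM in WT and 162726, 176696 and 147293 CPM in hasty. Its groups were also separate, but the change was smaller (log2 -0.42, SE 0.12, adjusted p = 0.023). The call of miR159a was kept in 4 of the 12 fits without 1 library and lost without control library 1 of WT, control library 3 of hasty or any 1 of the 6 low N libraries (log2 -0.48 to -0.33, adjusted p = 0.056 to 0.14). It was kept in 11 of 15 other alternatives, such as another scaling, tool or filter. Of 4 tested miR164 sequences, which limit NAC boundary genes such as CUC2, 3 were lower. miR164a with miR164b-5p was at 9313, 10170 and 9233 CPM in WT and 4757, 4540 and 4928 CPM in hasty (2.02-fold, log2 -1.01, SE 0.060, adjusted p = 3.0e-06), and the fourth, miR164c-3p, with means of 22.5 and 2.97 CPM, missed the threshold (adjusted p = 0.068). miR394, which acts on the F-box gene LCR in the shoot meristem, was at 793 ± 71.2 CPM in WT and 428 ± 95.2 in hasty (SD, n = 3; log2 -0.89, adjusted p = 0.0013).

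The miR396 family, which restrains cell proliferation in leaves through GROWTH-REGULATING FACTOR genes, was higher in 3 of its 4 sequences. miR396a-5p was at 34281, 35608 and 46266 CPM in WT and 52960, 55732 and 62620 CPM in hasty (log2 0.56, SE 0.14, adjusted p = 0.010). miR396b-5p was at 25386, 27435 and 30577 CPM in WT and 37280, 42952 and 39054 CPM in hasty (log2 0.52, SE 0.12, adjusted p = 0.0072). All hasty libraries were above all WT libraries for both. The call of miR396a-5p was lost without WT 1, WT 2, hasty 1 or hasty 3 (log2 0.48 to 0.54, adjusted p = 0.053 to 0.067), and that of miR396b-5p without WT 1, WT 2 or hasty 2 (log2 0.45 to 0.51, adjusted p = 0.053 to 0.070). Of 15 other alternatives, such as another scaling, tool or filter, 8 kept the call of miR396a-5p and 10 that of miR396b-5p. The low-abundance strand miR396b-3p was at 141, 111 and 109 CPM in WT and 291, 277 and 389 CPM in hasty, a 2.65-fold rise (adjusted p = 0.00031) kept in all 12 fits without 1 library, while miR396a-3p fell by 0.51 on the log2 scale (adjusted p = 0.0031).

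The miR165 and miR166 sequences, which set leaf polarity through HD-ZIP III genes, were a large block of counts. In WT low N, miR166 summed to 224899 CPM and miR165 to 45994, below the 373746 CPM of miR159. In hasty low N the sums were 258205, 47858 and 235813 CPM. The sequence shared by 7 miR166 names was at 225700, 241277 and 200566 CPM in WT and 281226, 257563 and 225515 CPM in hasty, with overlapping ranges (log2 0.20, SE 0.093, adjusted p = 0.13). miR165 was at 44221 ± 6746 CPM in WT and 46326 ± 5423 in hasty (SD, n = 3; adjusted p = 0.82). The miR166 sequence passed the threshold without hasty 3 (log2 0.30) and with library totals as scaling (log2 0.36). Both families together took 24.4% ± 2.79 of the counts in WT and 30.8% ± 2.58 in hasty (SD, n = 3; exact permutation p = 0.1, the smallest possible).

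**Figure D3:**
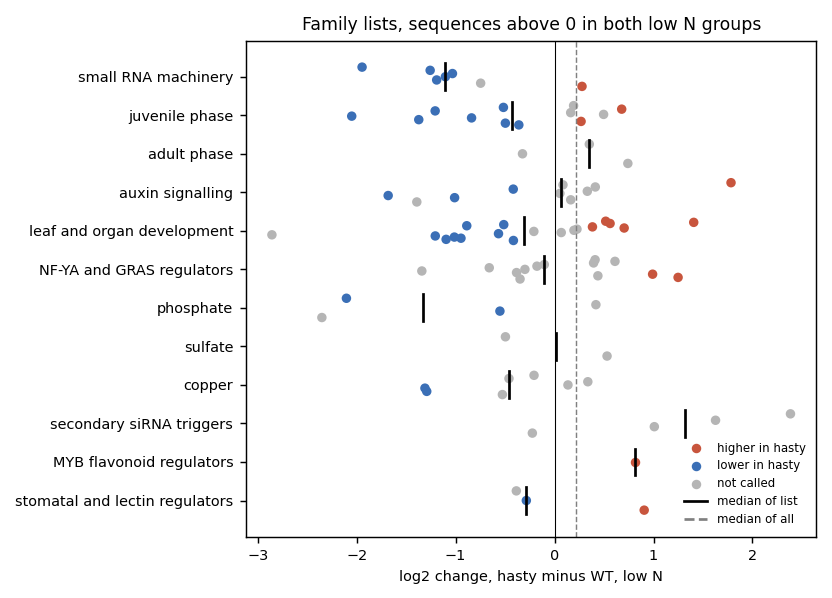
Log2 change, hasty minus WT in low N, of each tested sequence above 0 in both groups, by list of families; red is higher, blue lower and grey not called. Black ticks are list medians and the dashed line is the median of all such sequences, 0.22. The small RNA machinery list (median -1.10) lies furthest below it among lists with more than 4 sequences. The phosphate list, with 4 sequences, lies lower (median -1.33).

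Of 11 tested auxin sequences, 4 were lower and 1 was higher (45.5%, against 37.9% of all tested and 48.2% of conserved families). miR167a-5p with miR167b, which acts on AUXIN RESPONSE FACTOR 6 and 8, was at 78585, 81057 and 90742 CPM in WT and 86255, 90041 and 83520 CPM in hasty, with overlap (log2 0.05, SE 0.094, adjusted p = 0.78). This 5p sequence pools the counts of the miR167a and miR167b genes. The 3p strand of the miR167a hairpin alone, miR167a-3p (chr3:8108172-8108192, plus strand), was at 37143, 41168 and 34934 CPM in WT and 10573, 10224 and 14492 CPM in hasty. Its lowest WT library was more than 2 times its highest hasty library, and the fall was 3.21-fold (log2 -1.68, SE 0.16, adjusted p = 5.1e-05). The family miR393 acts on the auxin receptors TIR1 and AFB, and its 3p strand miR393b-3p is known to act on the Golgi gene MEMB12 in immunity. miR393b-3p (chr3:20691778-20691798, plus strand) was at 1089, 902 and 1430 CPM in WT and 3655, 3944 and 4172 CPM in hasty, a 3.44-fold rise with separate groups (log2 1.78, SE 0.23, adjusted p = 0.00024). The 5p strand of miR393a and miR393b was at 69.8 ± 6.74 CPM in WT and 74.0 ± 5.88 in hasty (SD, n = 3; adjusted p = 0.86). miR160a-5p, which acts on AUXIN RESPONSE FACTOR 10, 16 and 17, was at 6254 ± 1053 and 7001 ± 605 CPM (SD, n = 3) and was not called. The lower ones included miR847, a regulator of the auxin repressor IAA28, which had 132, 132 and 210 counts in WT and was listed at 0 in every hasty library.

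Among 13 sequences of miR169, miR170 and miR171, regulators of NF-YA and GRAS transcription factors, 2 were higher and none was lower. The share called higher, 15.4%, was near the 15.5% of all tested sequences. miR169a-5p was at 93.7, 117 and 115 CPM in WT and 279, 232 and 264 CPM in hasty, and miR169b-5p with miR169c was at 39.8, 42.7 and 30.7 CPM in WT and 86.9, 80.7 and 57.6 CPM in hasty. Neither had overlapping groups. The log2 change was 1.25 for the first (SE 0.14, adjusted p = 0.00012) and 0.99 for the second (SE 0.25, adjusted p = 0.012). miR824-5p, a regulator of the stomatal gene AGL16, was at 383, 370 and 280 CPM in WT and 627, 603 and 705 CPM in hasty (log2 0.91, SE 0.15, adjusted p = 0.0012). miR842 was at 1678 ± 132 and 1377 ± 56.9 CPM (SD, n = 3; log2 -0.29, adjusted p = 0.018), a call lost without WT 1, WT 3, hasty 2 or hasty 3 (log2 -0.29 to -0.23, adjusted p = 0.054 to 0.10). miR858a, a regulator of flavonoid MYB genes, was at 493, 398 and 452 CPM in WT and 639, 737 and 977 CPM in hasty, again without overlap (log2 0.81, SE 0.18, adjusted p = 0.0054).

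The triggers of secondary small interfering RNAs were hard to read because of zeros. miR161.1 was at 32122 ± 2773 CPM in WT and 27484 ± 478 in hasty (SD, n = 3) and was not called (adjusted p = 0.098). miR390a-5p, which starts the TAS3 pathway, was at 710, 0 and 697 CPM in WT and 1436, 1410 and 1498 CPM in hasty. The 0 of WT 2 stood beside high values in both other WT libraries, and the change was not called (adjusted p = 0.69). miR173-5p, which starts the TAS1 and TAS2 pathways, had no listed count in the 3 WT libraries and 227, 240 and 244 counts in the hasty ones. In control its mean was 174 CPM for WT and 454 CPM for hasty. A 0 in this table can be a missing listing rather than a missing miRNA: 29 items were at 0 in 1 low N library and at 50 or more counts in both others of its group. No fold is given for any item at 0 throughout a group.

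There were 16 called items at 0 throughout one low N group, 6 higher and 10 lower in hasty. NovelmiRNA-70 had 2279, 1946 and 2362 counts in WT and 0 in every hasty library, although the control libraries of hasty held a mean of 2431 CPM. NovelmiRNA-162 had the opposite listing, 1018, 1107 and 1007 counts in hasty and 0 in every WT and every control library. It was above 0 in exactly the 3 libraries in which NovelmiRNA-70 was at 0. No sequence is at hand for either, and whether both names list the same reads was not tested. NovelmiRNA-154 (95, 76 and 70 counts), NovelmiRNA-155 (92, 72 and 68 counts) and miR853 (31, 37 and 29 counts) were listed in WT alone, and NovelmiRNA-35 (50, 38 and 47 counts) in hasty alone.

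Other known miRNAs outside these lists also differed. miR773a, a regulator of a DNA methyltransferase gene, was at 23564, 22789 and 19850 CPM in WT and 9573, 10433 and 9245 CPM in hasty, a 2.26-fold fall with separate groups (log2 -1.18, SE 0.081, adjusted p = 7.6e-06). miR781a (chr1:7423523-7423543, plus strand, inside the gene AT1G21200, which is coding and of that strand) was at 22.6, 17.1 and 21.2 CPM in WT and 3.34, 1.75 and 3.97 CPM in hasty (log2 -2.70, SE 0.47, adjusted p = 0.0013). Both sequences were lower in every hasty library. A group of 3 low-abundance sequences was higher: miR840-5p at 4.68 ± 4.53 CPM in WT and 36.3 ± 12.9 in hasty, miR823, which acts on CHROMOMETHYLASE3, at 29.7 ± 8.71 and 61.0 ± 9.91, and miR5654-5p at 28.5 ± 9.91 and 60.6 ± 17.2 (SD, n = 3; adjusted p = 0.042, 0.027 and 0.048). Their calls were lost in 10, 7 and 11 of the 12 fits without 1 library, with adjusted p up to 0.15, 0.10 and 0.17. In 15 other alternatives, such as another scaling, tool or filter, they were kept in 12, 10 and 4. miR840-5p kept its call without control library 1 of WT or WT 2, miR5654-5p without WT 3, and miR823 without a control library of WT, control library 1 of hasty or WT 3. Among predicted items, NovelmiRNA-7 was at 1422 ± 62.4 CPM in WT and 2665 ± 119 in hasty (log2 0.91, adjusted p = 5.1e-05), and NovelmiRNA-80 at 204 ± 27.9 and 405 ± 44.7 (log2 0.99, adjusted p = 0.0011). NovelmiRNA-28 was at 60.2 ± 16.0 and 117 ± 4.04 CPM (adjusted p = 0.011), and NovelmiRNA-96 with NovelmiRNA-97 at 112 ± 29.0 and 224 ± 70.1 CPM (adjusted p = 0.023). NovelmiRNA-171 fell from 127 ± 12.9 to 24.4 ± 10.3 CPM (log2 -2.37, adjusted p = 0.00022), and smaller falls were called for NovelmiRNA-138 (log2 -1.22, adjusted p = 0.013) and NovelmiRNA-140 (log2 -1.26, adjusted p = 0.022). The calls of NovelmiRNA-96 with NovelmiRNA-97 and of NovelmiRNA-140 were each lost without WT 1, WT 3, hasty 2 or hasty 3 (adjusted p = 0.051 to 0.076 for the first and 0.074 to 0.090 for the second).

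The ratio of a 5p to a 3p strand needs no scaling between libraries. It is not always that of 1 hairpin: in 27 of 41 pairs at least 1 strand has a sequence shared with a gene outside the pair, such as the 5p strand of miR157, and its counts then pool several genes. Of the 41 pairs with enough counts, 18 (43.9%) had a changed 5p to 3p ratio in hasty low N (limma on log2 ratios, Benjamini-Hochberg adjusted p under 0.05), of which miR173 had both arms at 0 in WT. In the other 17, the arm that was less abundant in WT control fell relative to the more abundant one in 11 pairs and rose in 6. These 17 hold 13 distinct 5p sequences and are not independent, and 5 of them share no strand with another gene, of which the minor arm fell in 3 and rose in 2. For miR157a and miR157b the log2 ratios were -0.11, -0.02 and 0.13 in WT and 2.07, 2.09 and 1.55 in hasty. The ratio thus went from 1.00 to 3.73 (log2 change 1.90, SE 0.17, adjusted p = 3.3e-05), with a higher 5p strand and a lower 3p strand. For miR167a the ratio went from 2.21 to 7.45 (log2 change 1.75, adjusted p = 0.00040) and for miR156f from 5.34 to 15.5 (1.54, adjusted p = 0.0019). The ratio of miR393b moved towards its abundant 3p strand, from 0.0626 to 0.0191 (log2 change -1.71, adjusted p = 0.00072). The hairpins of the 2 miR396 genes went opposite ways. The miR396a ratio rose from 12.7 to 26.7 (adjusted p = 0.00080) and that of miR396b fell from 231 to 125 (adjusted p = 0.012). The ratio of miR168a was 61.8 in WT and 65.4 in hasty (adjusted p = 0.61), with both strands lower. In 14 pairs both arms were called, 10 in the same direction and 4 in opposite ones. The ratio of miR160a, from 181 to 572, was called (adjusted p = 0.020) but not without WT 1 (log2 1.52, adjusted p = 0.070) or hasty 1 (1.13, adjusted p = 0.066), and that of miR391 (log2 -2.36, adjusted p = 0.0011) includes WT 1, in which both strands were at 0.

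**Figure D4:**
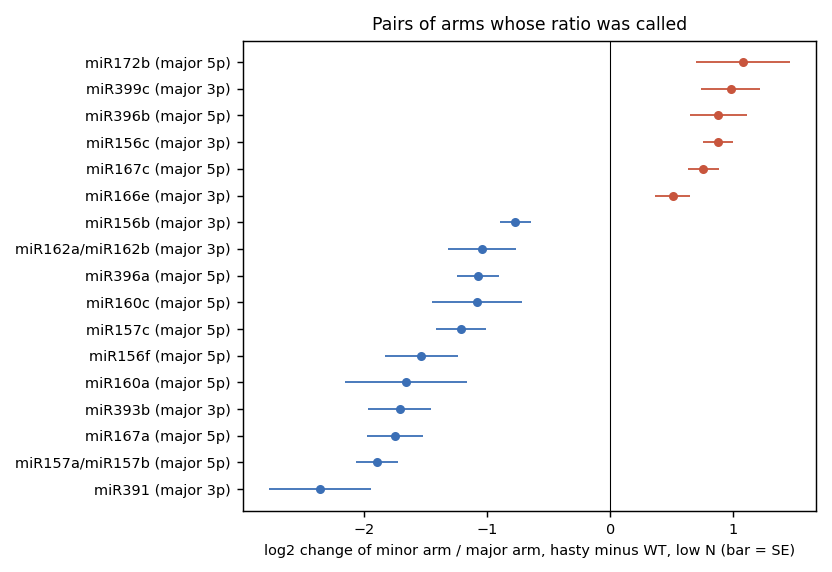
Change in the log2 ratio of the minor to the major arm, hasty minus WT in low N, with its SE, for the 17 called pairs of strands above 0 in both groups; the arm that was more abundant in WT control is named beside each. The minor arm fell in the 11 blue pairs and rose in the 6 red ones; in 12 of the 17 a strand is shared with another gene.

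Sequences of one family and seed that come from different genes were also compared as ratios within each library, a comparison added after the data were seen. The sources used here do not say how reads that could match both sisters were assigned. Of 30 pairs, 13 (43.3%) had a changed ratio (limma, adjusted p under 0.05). miR159a and miR159b-3p differ by A21U, counting from 1 at the 5′ end with the base of the first-named sequence first, and their ratio went from 1.39 in WT to 2.22 in hasty (log2 change 0.68, SE 0.066, adjusted p = 3.1e-05). miR398a-3p and miR398b-3p differ by U21G, and their ratio fell from 0.0878 to 0.0324 (adjusted p = 4.3e-06). miR156a-3p and miR156c-3p differ by U13A, and their ratio rose from 1.67 to 3.35 (adjusted p = 4.3e-06). Of these 3 pairs, none had a hasty library within the WT range. miR158a-3p and miR158b, which differ by U1C, went from 20.4 to 34.6 (adjusted p = 0.0026). For miR396a-5p and miR396b-5p, which differ by G21U, the ratio was 1.38 in WT and 1.44 in hasty (log2 difference 0.05, SE 0.10, adjusted p = 0.72). For miR165 and the shared miR166 sequence, which differ by C17U, it was 0.198 and 0.182 (adjusted p = 0.37).

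**Figure D5:**
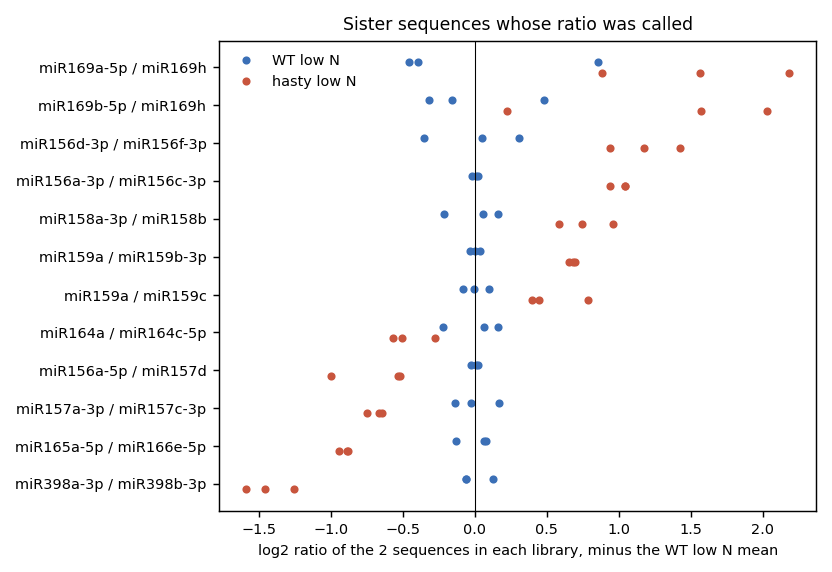
Log2 ratio of sister sequences in each low N library, set to 0 at the WT low N mean of each pair, for the 12 called pairs above 0 in both groups; WT libraries are blue and hasty libraries red. The miR398a-3p to miR398b-3p ratio lies below 0 in all 3 hasty libraries and the miR159a to miR159b-3p ratio above 0.

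The calls are also given by first base and by arm, traits that no list used and whose link to the calls was not tested. Of all tested sequences 37.9% were called, with 48.2% of those of conserved families and 38.1% of other known miRNAs. Among the 73 tested known sequences that start with U, the base that ARGONAUTE1 is known to prefer, 14 were higher and 22 lower (49.3% called). Of 20 that start with G, 2 were higher and 8 lower (50% called, median log2 change -0.44), and of 16 that start with A, 3 were higher and none lower (18.8% called, median 0.85). The 16 that start with C gave 2 higher and 5 lower (43.8% called, median -0.44). By arm, 56 tested 5p sequences gave 13 higher and 10 lower calls (41.1%, median 0.07). The 69 tested 3p sequences gave 8 higher and 25 lower (47.8%, median -0.42). First base and arm overlap with family, so these counts describe the same sequences in another grouping.

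Most of these genotype differences were also called in control, in the same direction. The control libraries are not shared with the low N comparison, although the fit pools their spread. In control, 84 of 206 sequences (40.8%) were called, 34 higher (16.5%) and 50 lower (24.3%), and 62 sequences were called in the same direction in both conditions, 62 of 78 in low N and 62 of 84 in control. None was called in opposite directions. The test of the difference between the conditions called 4 sequences (1.94%), and 21 had an unadjusted p under 0.05. For miR827 the log2 change was -1.71 in control and -2.10 in low N, for miR393b-3p 2.11 and 1.78, and for miR168a-5p -1.05 and -1.10, and none of these 3 was called as different. Of the 4, 2 were known sequences. For miR166a-5p with miR166b-5p the log2 change was 0.23 in low N and -0.43 in control, a difference of 0.65 (SE 0.12, interaction adjusted p = 0.024), lost without any 1 WT library of either condition, control library 3 of hasty, hasty 1 or hasty 2 (0.63 to 0.73, adjusted p = 0.052 to 0.14). The other was the miR157a-3p and miR157b-3p sequence. In control its level was 7248 ± 135 CPM for WT and 6416 ± 246 for hasty (SD, n = 3; log2 -0.18, adjusted p = 0.39). In low N the 3 WT libraries were at 11109, 8987 and 8533 CPM and the 3 hasty libraries at 3623, 3612 and 5163 CPM (log2 -1.21, SE 0.15, adjusted p = 0.00015). The difference of both changes was -1.03 (SE 0.20, interaction adjusted p = 0.032). The interaction call was lost without any 1 WT library of either condition, without control library 1 of hasty and without hasty 2 (-1.07 to -0.87, adjusted p = 0.052 to 0.18), and with library totals as scaling (-0.94, adjusted p = 0.16).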

How the data were processed

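Small RNA was sequenced from 12 shoot libraries. The deposited table holds whole-number counts per miRNA name, although it is named TPM: column totals range from 1292752 to 3226269. Which aligner, counter and annotation the authors used is not stated in these sources, and mm10, a mouse assembly, is the 1 build per the submitters' processing notes. Column names marked CK were read as control. Totals are not sequencing depth, libraries were amplified by PCR without stated molecular identifiers, and replicates of a group differed by 25.2 to 173 times the counting variance (chi-square per degree of freedom), so no counting interval is given.

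All 216 known names matched RefSeq (TAIR10.1). Names of one mature sequence were joined by their highest count, as were predicted names with identical values, and 10 predicted names took the values of a known one. Sequences passing filterByExpr were fitted with edgeR 4.0.16 in R 4.3.3 (trimmed-mean factors, 1 coefficient per group over 12 libraries, 8 residual degrees of freedom). The SE of a log2 change was obtained from the change and its F statistic. Ratios were log2 of counts plus 0.5, tested with limma 3.58.1 where both means reached 10 counts. Scripts were tested on simulated data. Replicates are labelled biological, and p-values measure the spread between these libraries.

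The members, lists and tests were chosen with earlier results of these data known. Named were the 12 largest non-overlapping called changes in each direction at 10 CPM or more, items at 0 in 1 group and at 30 or more counts in every library of the other, the 3 most abundant of each list, the 10 most abundant of all, the interaction calls and the 5 largest changes of arm ratio in each direction. Others, such as miR164, miR394, miR773a, miR853, miR396a-3p and the miR168 3p strands, were chosen after their values were seen. Alternatives were other scalings, tools (DESeq2 1.42.0, limma), filters, ways of joining names, a replicate block and each library left out.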

Additional observations from a re-analysis of the deposited data

Results flagged for a closer look

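The genotype difference in low N differed from that in control for 4 items (edgeR quasi-likelihood test of the interaction, Benjamini-Hochberg over 206 sequences). NovelmiRNA-70 had an adjusted p of 1.44625e-08. Its counts were 0 in every hasty library of low N and above 0 in the means of the other groups. The fitted size of that difference rests on the zeros and is not given. NovelmiRNA-66 had an adjusted p of 0.0235096. It had 9, 18 and 10 counts in WT and 0 in every hasty library of low N, against 296 ± 24.0 CPM for WT and 94.8 ± 30.9 CPM for hasty in control (SD, n = 3). The sequence of miR166a-5p and miR166b-5p, the less abundant strand of the miR166 hairpins, had an adjusted p of 0.0235096. Its log2 change was 0.23 in low N (971 ± 71.0 CPM in WT, 1136 ± 86.6 in hasty) and -0.43 in control (1280 ± 15.9 and 952 ± 68.2), a difference of 0.65 (SE 0.12). The sequence of miR157a-3p and miR157b-3p had an adjusted p of 0.0317587, with log2 changes of -1.21 in low N and -0.18 in control. The calls of NovelmiRNA-66, miR166a-5p and miR157a-3p were lost with the replicate number as a block (adjusted p = 0.070, 0.070 and 0.11) and without several single libraries. The part that nitrogen, zeros in the table or single libraries have in these 4 results was not tested.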

How the results depend on the processing

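The count of 78 called sequences stayed within 1.5 times under every alternative run, from 60 without hasty low N replicate 2 to 97 with DESeq2, and fits without 1 library were filtered again and tested 223 to 230 sequences. Over 103 sequences and all alternatives, 2464 of 2774 repeats kept their direction and side of the threshold, 251 lost the call, 31 gained one and 28 reversed. The causes were not tested. The count of 4 interaction calls was 17 with quantile normalization, 18 with DESeq2, 8 with limma on log2(CPM + 1), 2 with no filter and 1 to 6 without 1 library (1 without replicate 2 of WT control, WT low N or hasty low N). The replicate number does not pair libraries by label. Same-numbered low N libraries had deviations correlated at -0.076, -0.034 and -0.20, so no pairing was taken. With the replicate number as a block, 63 sequences were called in low N and 1 in the interaction, NovelmiRNA-70. With every name kept as listed, the share of conserved families turned to 0.715 points higher in hasty (main -0.816) and that of predicted items to -0.039 (main 1.48).

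Of the called sequences 1 reversed, miR158a-3p, which at -0.44 was 0.26 with quantile normalization. There it was called in the opposite direction (limma, adjusted p = 0.016). The other reversals were of log2 changes that were not called. With library totals miR171a-3p was 0.0719. With quantile normalization miR161.1 was 0.13, miR165 -0.22, miR171b-3p -0.0726, miR391-5p 0.48, miR393a-5p -0.14, miR395b 0.43 and miR399c-5p -0.0695, and with limma miR391-5p was 0.45 and miR395a -0.31. With the mean, the sum or every name, or predicted names apart, miR165 was -0.0592, -0.0205, -0.01 and -0.0486, miR167a-5p was -0.0785, -0.04, -0.0366 and -0.0763, and miR393a-5p was -0.0462, -0.0077, -5e-04 and -0.0412. Without 1 library, miR165 ranged from -0.0678 to 0.18, miR167a-5p from -0.0081 to 0.12, miR171a-3p from -0.31 to 0.0466 and the miR396a-5p to miR396b-5p ratio from -0.0279 to 0.12. Totals in hasty low N were lower than in WT, which limits low items there most, and no limit of detection could be set from the zeros.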

Other observations

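A few groupings of the low N calls that the lists did not use are given as counts. Of 13 tested known sequences that lie within a coding gene on its strand, 3 were higher and 4 lower in hasty, against 18 higher and 31 lower of 112 elsewhere. By length, 94 tested sequences of 21 nt gave 16 higher and 26 lower calls (44.7%, against 37.9% of all tested). The 13 of 22 nt gave 3 higher and 4 lower (53.8%), and 13 of 20 nt gave 1 higher and 4 lower (38.5%). Of 42 items with a mean above 1000 CPM, 12 were higher and 17 lower, so 69.0% of them were called against 37.9% of all tested. The 10 most abundant sequences held 80.1% ± 1.51 of the counts in WT and 80.1% ± 1.62 in hasty (SD, n = 3; exact two-sided permutation p = 1).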
